A study of Mus musculus with 6 samples.

Results

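The genes described here encode, a read-through gene aside, nucleoporins, the proteins of the nuclear pore, and karyopherins, the soluble receptors that carry cargo through it. They were taken by symbol alone, as every gene of the deposited table whose symbol starts with Nup and a digit, Xpo, Ipo and a digit, Kpna, Kpnb or Tnpo. The rule took 43 of the 13839 genes in the table, 21 on the pore side and 22 transport receptors. The 21 include 2 pore-like symbols, the read-through gene Nup62-il4i1 and Nup210l, that are not part of the pore classes described below. RNA was sequenced from MLL-ENL-ERtm cells, a mouse line carrying the MLL-ENL fusion and labelled acute monocytic leukaemia. A group of 3 libraries came from cells with a retroviral short hairpin RNA in the pGFP-V-RS vector against Tet1 (shTet1), and the control group of 3 libraries from cells with a scramble hairpin in that vector (shNS). All 6 libraries share the cell line, the vector, selection with 1 µg/mL puromycin over 3 passages, and adaptation to SILAC medium, which carries isotope-labelled amino acids. The model is therefore a single line of selected cells in bulk. The labels do not state whether a group's libraries are separate cultures; p-values here measure only the spread over the libraries given, and part of it may be technical. The comparison asks how transcripts of the nuclear transport machinery stand when Tet1, an enzyme that oxidises 5-methylcytosine, is knocked down.

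The nuclear pore is a ring of many copies of each nucleoporin. Its scaffold consists of the outer rings, built from the Y complex, and the inner ring, and its channel is lined by nucleoporins with phenylalanine-glycine (FG) repeats. Importins bind cargo in the cytoplasm, and the small GTPase Ran in its GTP form makes them release it in the nucleus. Exportins bind cargo together with Ran-GTP in the nucleus and release it in the cytoplasm after GTP hydrolysis. In human leukaemias, NUP98 and NUP214 are partners in gene fusions, and XPO1 is a drug target.

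Libraries held 15873632 to 18592139 reads on the table's genes, and the 43 genes had 64 to 10469 reads each in a library. Levels are in FPKM, reads scaled by gene length and by library size, and so can be compared between genes. Differences are log2 changes of FPKM + 1, shTet1 minus shNS, tested with limma over the 11646 genes that reached 1 FPKM in 3 or more libraries. A gene is called when its Benjamini-Hochberg adjusted p, over all genes tested, is under 0.05. Of all genes tested, 3925 (33.7%) were lower and 2254 (19.4%) higher in shTet1, and their median log2 change was −0.13. Median-of-ratios scaling, which sets the typical gene of each library level, moved that median to −0.01 and the calls to 2757 lower (23.7%) and 2887 higher (24.8%). Values per library are given in the order of replicates 1, 2 and 3, and gene positions are RefSeq's on GRCm38.p6. Tet1, the targeted gene, stood at 0.489, 0.392 and 0.446 FPKM in shNS and at 0.0982, 0.155 and 0.139 FPKM in shTet1. The shTet1 libraries held 29.6% of the shNS level. With 25 to 128 reads in a library, Tet1 was under the filter of 1 FPKM and not among the genes tested with limma. Groups of 3 allow no p below 0.1 in an exact two-sided permutation test, which was the value for Tet1.

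The labelled cell type was checked against marker lists. Of 8 myeloid and leukaemia genes, 6 were higher and 1, Mpo, lower in shTet1, and each of the 8 was at or above 15.1 FPKM in every library. The T cell, B cell and erythroid genes in the table were under the filter on low values, with none above 1.32 FPKM (Hbb-b1) in any library. Other lists moved with the group. Of 4 stem and progenitor genes, Cd34, Meis1 and Hoxa9 were lower in shTet1, Hoxa9 not after scaling, and Kit was not called. All 5 dividing cell genes (Mki67, Top2a, Ccnb1, Cdk1 and Mcm2) were lower in shTet1, with summed levels of 335 to 362 FPKM in shNS and 174 to 219 FPKM in shTet1. All 5 monocyte and macrophage genes in the table were higher, with sums of 3012 to 3488 FPKM in shNS and 10240.0 to 15769 FPKM in shTet1. Csf1r is in this list and in the myeloid one. In the dividing cell and the monocyte and macrophage lists shTet1 replicate 3 lay nearest to the shNS libraries. Myc, a transcription factor of growing cells, fell from 78.5 ± 4.78 to 42.3 ± 2.16 FPKM (SD, n = 3 each; log2 change −0.88, SE 0.08, adjusted p = 0.000161). The part of cell division and of monocytic maturation in the results on pore and receptor genes was not tested.

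Most of the pore and receptor genes were lower in the knockdown, and none was called higher. Of the 42 genes tested, 34 fell, against the background of 33.7% of all genes, and the median log2 change was −0.58. Summed over all 43 genes, the level was 1355, 1393 and 1397 FPKM in shNS and 866, 887 and 1058 FPKM in shTet1. The sums of the groups did not overlap, and shTet1 replicate 3 was the highest of the knockdown libraries. Lower values in all 3 shTet1 libraries than in all 3 shNS libraries were found for 36 of the 42 genes, against 39.1% of all genes tested. None of them had the opposite arrangement, which 22.6% of all genes had. Within the same-numbered pairs, 39 of the 42 genes were lower in shTet1 in all 3, against 50.3% of all genes. With median-of-ratios scaling 28 of the 42 genes fell, against 23.7% of all genes, and with limma-voom on the reads recovered from the FPKM values 29 fell, against 22.9%. With the replicate number as a block 38 fell, against 41.0%. No gene was called higher under any of these fits, and none had an unadjusted p under 0.05 in that direction in the limma, scaled or voom fit. In bulk samples, fewer cells of a type and less RNA per cell cannot be told apart.

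A larger share of pore components than of receptors fell, against 33.7% of all genes, and the difference between them was not tested. Of 20 pore genes tested, Nup62-il4i1 included, 18 fell (90.0%). Their median log2 change was −0.65, or −0.51 relative to the median of all genes. Of 22 receptor genes, 16 fell (72.7%), with a median of −0.53, or −0.40 relative to all genes. Scaled, the counts were 15 of 20 (75.0%) and 13 of 22 (59.1%), against 23.7% of all genes. The relative medians were then −0.50 and −0.38. The summed level of pore components went from 525 ± 3.84 to 340.2 ± 42.4 FPKM and that of receptors from 857 ± 19.0 to 597 ± 62.8 FPKM (SD, n = 3 each). In the authors' deposited table, 14 of 21 pore genes and 14 of 22 receptor genes were lower at adjusted p under 0.05 and none was higher, against 22.1% lower and 23.7% higher of all genes. The members were abundant genes: 35 of the 42 lay above the median level of all tested genes, 12.2 FPKM.

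The knockdown libraries were not alike. Among the pore and receptor genes that fell, shTet1 replicate 3 was the highest of the 3 knockdown libraries for 17 of 18 and 15 of 16 genes, that is 94.4 and 93.8%, against 62.1% of all genes that fell. Without that library, 19 pore and 18 receptor genes fell, against 3953 of all 11495 genes tested. Leaving out each of the 6 libraries in turn gave 15 to 19 pore genes and 12 to 18 receptor genes. The count over all genes moved too. It ran from 2676 of 11457 without shNS replicate 3 to 4007 of 11492 without shTet1 replicate 1. All 13 alternative fits called 27 of the 34 genes, 15 on the pore side and 12 receptors.

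**Figure D1:**
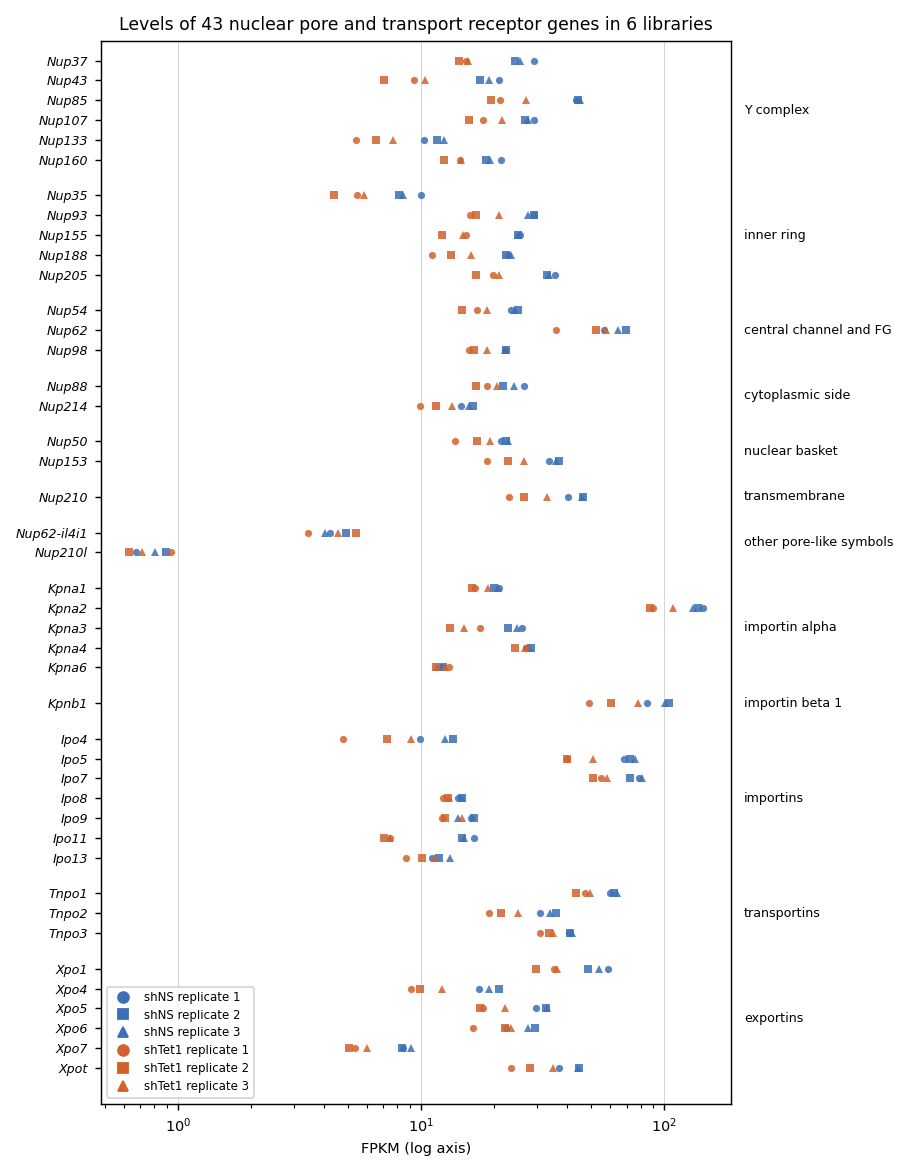
Level of each gene in each library, in FPKM on a log axis, with genes in rows by class, blue for shNS, orange for shTet1 and marker shape for the replicate number. In 36 of the 42 tested genes the 3 orange markers lie to the left of the 3 blue ones, and Nup210l, at under 1 FPKM in every library, is the lowest of the 43 genes.

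Sequence upstream of the genes is shown because many members fell together and because Myc, whose partner-bound form recognises the E-box CACGTG, fell with them. RefSeq promoter windows on GRCm38.p6 were available for 34 of the 43 genes, 41 windows in all, and the 250 bases before each start were searched on both strands for 4 motifs that do not overlap one another at any match. The E-box, which reads the same on both strands, was in the windows of 6 genes (17.6%), namely Ipo7, Nup188, Nup54, Nup93, Tnpo2 and Xpot, against 9.6% of 10828 genes of the table with a window. The palindromic motif of the nuclear respiratory factor NRF1, whose letters are the capitals in the Nup107 window, was found for 4 genes (11.8%), Nup107, Nup50, Nup62 and Xpo5, against 1.8%. CCGGAAG, an ETS-type motif with the complement CTTCCGG, was found for 7 genes (20.6%) against 15.0%, and CCAAT, with the complement ATTGG, for 17 (50.0%) against 40.9%. Of the 34 genes with a window, 27 fell, among them 6 of 6 with the E-box, 3 of 4 with the NRF1 motif, 6 of 7 with the ETS-type motif and 13 of 17 with CCAAT. A match describes these letters only, and the part of Myc in the decreases was not tested. The pair of genes with more than 1 E-box and a pair with the NRF1 motif are printed 5′ to 3′ along the gene's strand. Capitals mark only the E-box in the first pair and the NRF1 motif in the second. Matches of other motifs are left in lower case, namely 2 of the ETS-type motif for Nup107 and 1 of CCAAT for Tnpo2. The Nup188 window lies at chr2:30286166-30286415 on the plus strand, and its E-boxes begin 66 and 24 bases before the start. The Tnpo2 window with matches, 1 of its 2, is chr8:85036643-85036892, plus strand, with E-boxes 155 and 116 bases before the start. The Nup107 window is chr10:117792706-117792955 on the minus strand, with 1 NRF1 motif beginning 65 bases before the start, and that of Xpo5 is chr17:46202561-46202810 on the plus strand, with motifs 85 and 62 bases before it.
Nup188: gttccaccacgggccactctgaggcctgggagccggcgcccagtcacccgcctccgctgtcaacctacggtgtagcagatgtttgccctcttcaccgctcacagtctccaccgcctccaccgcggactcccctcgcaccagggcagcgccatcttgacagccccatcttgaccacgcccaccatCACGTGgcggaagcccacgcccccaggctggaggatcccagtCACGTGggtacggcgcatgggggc
Tnpo2: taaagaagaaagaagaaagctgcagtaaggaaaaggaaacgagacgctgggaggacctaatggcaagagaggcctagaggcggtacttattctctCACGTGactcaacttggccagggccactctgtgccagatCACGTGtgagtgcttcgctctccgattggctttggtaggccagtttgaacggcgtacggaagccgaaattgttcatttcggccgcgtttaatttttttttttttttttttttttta
Nup107: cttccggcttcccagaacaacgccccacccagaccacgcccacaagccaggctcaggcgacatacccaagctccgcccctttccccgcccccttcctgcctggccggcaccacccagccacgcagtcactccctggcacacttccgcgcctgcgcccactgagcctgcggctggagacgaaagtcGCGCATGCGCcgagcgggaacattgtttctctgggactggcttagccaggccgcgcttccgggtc
Xpo5: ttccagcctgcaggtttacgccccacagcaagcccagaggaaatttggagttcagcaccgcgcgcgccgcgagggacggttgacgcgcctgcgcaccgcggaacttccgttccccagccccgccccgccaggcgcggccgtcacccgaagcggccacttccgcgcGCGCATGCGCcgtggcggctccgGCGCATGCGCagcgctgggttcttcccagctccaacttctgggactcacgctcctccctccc

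The Y complex forms the outer rings of the pore scaffold and also seeds new pores after mitosis. All 6 genes placed in this class fell, under the deposited and the median-of-ratios scaling, with a median log2 change of −0.75, or −0.61 relative to all genes. The class does not hold every gene of the complex. Seh1l and Sec13, whose symbols the rule does not take, had log2 changes of −0.50 and −0.28 (adjusted p = 0.0052 and 0.0383). For Ahctf1, which binds the complex, the log2 change was −0.45 (adjusted p = 0.021). After scaling Seh1l kept its call (adjusted p = 0.0155), and Sec13 and Ahctf1 did not (adjusted p = 0.239 and 0.0772). Nup85 (chromosome 11, 115564432 to 115583924), a core member of the short arm of the Y, stood at 43.4, 44.3 and 45.1 FPKM in shNS and at 21.2, 19.4 and 27.0 FPKM in shTet1. The groups were far apart, with shTet1 replicate 3 the highest of the knockdown libraries, and the level fell to 50.9% of shNS (log2 change −0.96, SE 0.12, adjusted p = 0.000518). Nup43 (chromosome 10, 7667504 to 7678886), a peripheral member, stood at 20.9, 17.5 and 19.0 FPKM in shNS and at 9.35, 7.01 and 10.4 FPKM in shTet1. Its highest knockdown value lay well below its lowest control value (log2 change −1.03, SE 0.14, adjusted p = 0.000759), and its log2 change was the most negative of the 42. Nup37 (chromosome 10, 88146976 to 88178395), a further peripheral member, stood at 29.2, 24.3 and 25.6 FPKM in shNS and at 15.3, 14.3 and 15.6 FPKM in shTet1, with knockdown libraries close together (log2 change −0.76, SE 0.09, adjusted p = 0.000461). The other 3 genes, Nup133, Nup107 and Nup160, which encode parts of the stem and hub, had log2 changes of −0.73, −0.58 and −0.48 (adjusted p = 0.00219, 0.00456 and 0.00425). Nup107, whose window with the NRF1 motif is printed above, went from 27.8 to 18.4 FPKM. Levels of the 6 genes were unequal in shNS, from 11.4 FPKM for Nup133 to 44.3 FPKM for Nup85, a ratio of 3.87. Nup160 and Nup107 held a larger share of the 6 genes' summed FPKM in every shTet1 library than in any shNS library, Nup85 and Nup43 a smaller one.

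The inner ring joins the outer rings to the membrane and to the channel. All 5 of its genes fell under both scalings, with a median log2 change of −0.74 (−0.60 relative to all genes), close to that of the Y complex. Nup205 (chromosome 6, 35177616 to 35247599), a large scaffold protein, stood at 35.7, 32.8 and 33.6 FPKM in shNS and at 19.8, 16.9 and 20.9 FPKM in shTet1. These groups did not overlap (log2 change −0.80, SE 0.10, adjusted p = 0.00046). Nup155 (chromosome 15, 8109263 to 8159859), which links the ring to the pore membrane, stood at 25.4, 25.0 and 25.1 FPKM in shNS and at 15.3, 12.2 and 14.9 FPKM in shTet1. The control libraries were nearly equal and the knockdown libraries held 56.3% of their mean (log2 change −0.79, SE 0.10, adjusted p = 0.000518). Nup93 (chromosome 8, 94214564 to 94328100), the hub that binds the other inner-ring proteins, stood at 29.0, 29.0 and 27.6 FPKM in shNS and at 15.9, 16.9 and 20.9 FPKM in shTet1 (log2 change −0.65, SE 0.11, adjusted p = 0.00177). Nup188, the paralogue of Nup205 whose window with E-boxes is printed above, had a log2 change of −0.74 and went from 22.9 to 13.5 FPKM. Nup35, a membrane-binding member, had a log2 change of −0.66 and the lowest level of the ring, 8.84 FPKM in shNS. Each inner-ring gene kept a share of the ring's summed FPKM that overlapped between groups. Exons of Nup35 overlap those of Dusp19 on its strand by up to 49 bases per exon pair, and reads there could be counted for either gene.

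FG nucleoporins line the channel and bind the receptors as they pass. Of the 3 genes of this class, 2 fell, with a class median of −0.40 (−0.27 relative to all genes). Nup54 (chromosome 5, 92415540 to 92435259), a partner of Nup62 in the channel, stood at 23.5, 25.0 and 24.4 FPKM in shNS and at 17.0, 14.8 and 18.6 FPKM in shTet1. All knockdown values were below all control values (log2 change −0.51, SE 0.10, adjusted p = 0.00317). Nup98 (chromosome 7, 102119400 to 102210166), which also binds the mRNA export factor Rae1, stood at 22.2, 22.4 and 22.2 FPKM in shNS and at 15.7, 16.5 and 18.7 FPKM in shTet1. The control values were nearly identical and the decrease was small (log2 change −0.37, SE 0.09, adjusted p = 0.00824); scaled, it was −0.25 with adjusted p = 0.0432. Nup62 (chromosome 7, 44816088 to 44831836), the central FG protein of the channel, stood at 56.5, 69.5 and 64.6 FPKM in shNS and at 36.0, 52.6 and 57.4 FPKM in shTet1. Its groups overlapped, replicate 1 being lowest in each, and it was not called (log2 change −0.40, SE 0.17, adjusted p = 0.0817), although it was with the replicate block (adjusted p = 0.0105), without shTet1 replicate 3 (adjusted p = 0.0373) and without both replicate 1 libraries. Exons of Nup62 overlap those of Il4i1 on its strand by up to 88 bases per exon pair. They overlap those of Atf5 on the opposite strand by up to 82. Nup62 also shares exons with the read-through gene Nup62-il4i1, described below, so its value is uncertain.

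On the cytoplasmic face, Nup88 and Nup214 form a complex at which export cargo leaves Xpo1. Both fell by a small amount. Nup214 (chromosome 2, 31974408 to 32053975) stood at 14.6, 16.4 and 15.7 FPKM in shNS and at 9.86, 11.5 and 13.4 FPKM in shTet1 (log2 change −0.40, SE 0.12, adjusted p = 0.02). Nup88 (chromosome 11, 70943058 to 70969973) stood at 26.5, 21.8 and 24.1 FPKM in shNS and at 18.7, 16.9 and 20.6 FPKM in shTet1 (log2 change −0.35, SE 0.11, adjusted p = 0.0249). In neither did the groups overlap, but neither was called after median-of-ratios scaling (adjusted p = 0.0854 and 0.0868) or with limma-voom (adjusted p = 0.0612 and 0.0841). Nup214 also lost its call without shNS replicate 2 or 3 or shTet1 replicate 2. Nup88 did so without shNS replicate 1 or 3, shTet1 replicate 2 or both replicate 1 libraries. Over the 6 libraries left out, the adjusted p ran from 0.00678 to 0.0699 for Nup214 and from 0.0166 to 0.091 for Nup88. Each overlaps a gene on the opposite strand, Fam78a and Rabep1, and the sources used here do not say whether counting used the strand.

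The nuclear basket reaches from the pore into the nucleus. Nup153 (chromosome 13, 46679902 to 46727849), which anchors the basket, stood at 33.5, 37.0 and 35.9 FPKM in shNS and at 18.7, 22.7 and 26.4 FPKM in shTet1, with no overlap (log2 change −0.64, SE 0.12, adjusted p = 0.00346). Nup50 (chromosome 15, 84923428 to 84942963), a mobile nucleoporin that helps importin alpha let go of its cargo, stood at 21.4, 22.4 and 22.7 FPKM in shNS and at 13.8, 17.0 and 19.2 FPKM in shTet1 (log2 change −0.40, SE 0.12, adjusted p = 0.0221). Its decrease was smaller and was not called after scaling (adjusted p = 0.0942) or with limma-voom (adjusted p = 0.072). The decrease also lost its call without shNS replicate 2 or 3 or shTet1 replicate 2, with adjusted p from 0.00751 to 0.0757 over the libraries left out. Nup210 (chromosome 6, 91013067 to 91118322), a glycoprotein that spans the pore membrane, stood at 40.2, 46.5 and 46.0 FPKM in shNS and at 23.1, 26.4 and 33.1 FPKM in shTet1, and its groups were far apart (log2 change −0.68, SE 0.13, adjusted p = 0.00387).

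The rule also took 2 pore-like symbols that are not part of these classes. Nup62-il4i1 (chromosome 7, 44816370 to 44840804), a read-through gene that shares exons with Nup62 and Il4i1, stood at 4.21, 4.92 and 4.04 FPKM in shNS and at 3.42, 5.42 and 4.55 FPKM in shTet1. The groups overlapped fully (log2 change 0.01, SE 0.15, adjusted p = 0.98), and the sign turned negative without shNS replicate 1 or 3 or shTet1 replicate 2 or 3, with −0.12 the most negative value. Nup210l (chromosome 3, 90101007 to 90212151), a paralogue of Nup210, stood at 0.672, 0.897 and 0.802 FPKM in shNS and at 0.935, 0.632 and 0.709 FPKM in shTet1, was under the filter, and was not tested.

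**Figure D2:**
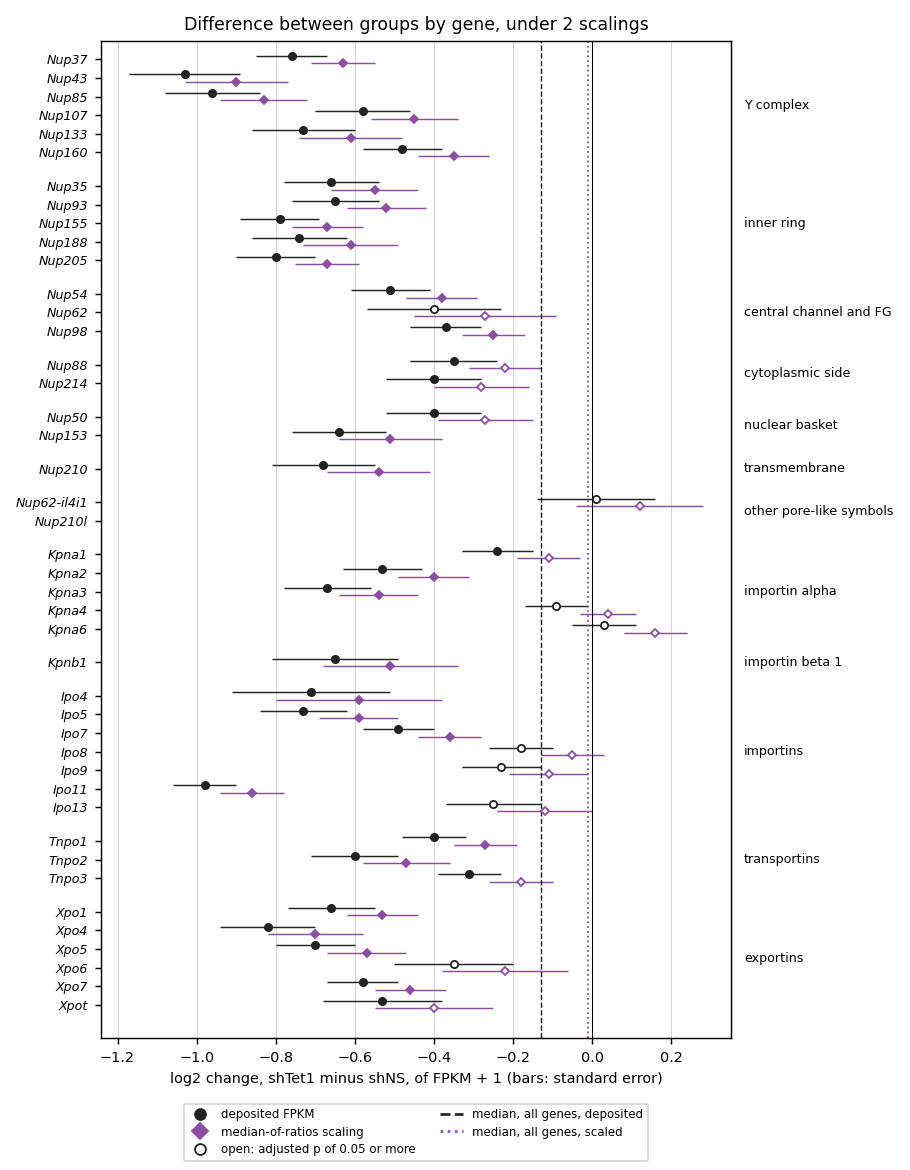
Log2 change of each tested gene (shTet1 minus shNS, log2 of FPKM + 1) with its standard error, as deposited (black circles) and after median-of-ratios scaling (purple diamonds), open where the adjusted p is 0.05 or more; vertical lines mark the median of all genes, −0.13 and −0.01. Nup43 (−1.03), Ipo11 (−0.98) and Nup85 (−0.96) lie farthest left, and Kpna4, Kpna6 and Nup62-il4i1 lie near 0.

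Importin alpha proteins are adaptors that bind the classical nuclear localisation signal and hand cargo to importin beta 1. Of 5 genes, 3 fell, and the class median was −0.24, or −0.11 relative to all genes. Kpna2 (chromosome 11, 106988629 to 106999525), the most abundant of them and a gene of dividing cells, stood at 144, 138 and 131 FPKM in shNS and at 89.8, 87.0 and 109 FPKM in shTet1, with no overlap (log2 change −0.53, SE 0.10, adjusted p = 0.00338). Kpna3 (chromosome 14, 61365186 to 61439947) stood at 26.0, 22.8 and 24.8 FPKM in shNS and at 17.5, 13.1 and 15.0 FPKM in shTet1, and shTet1 replicate 1 was here the highest knockdown library (log2 change −0.67, SE 0.11, adjusted p = 0.00208). Both kept their calls after scaling. Kpna1 (chromosome 16, 35983288 to 36037136) stood at 21.0, 19.9 and 20.7 FPKM in shNS and at 16.7, 16.2 and 18.9 FPKM in shTet1, and its small decrease was barely past the threshold (log2 change −0.24, SE 0.09, adjusted p = 0.0452). It was not called after scaling (adjusted p = 0.268), with limma-voom (adjusted p = 0.264) or without both replicate 1 libraries. Nor was it called when any library other than shTet1 replicate 3 was left out, with adjusted p from 0.0167 to 0.144 over the 6 fits.

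Kpna4 and Kpna6 were not called under any of the 14 fits. Kpna6 (chromosome 4, 129643979 to 129672767) stood at 12.2, 12.3 and 11.6 FPKM in shNS and at 13.0, 11.5 and 12.5 FPKM in shTet1, with overlapping groups. Its log2 change was 0.03 with a 95% interval of −0.16 to 0.23 (0.16 scaled). Kpna4 (chromosome 3, 69072221 to 69127092) stood at 27.0, 28.2 and 27.9 FPKM in shNS and at 26.9, 24.3 and 26.7 FPKM in shTet1. Its log2 change was −0.09, with an interval of −0.27 to 0.09, and became 0.04 with scaling. The make-up of importin alpha RNA differed between the groups. Kpna2 made up 62.5, 62.4 and 60.7% of the summed FPKM of the 5 genes in shNS and 54.8, 57.2 and 59.9% in shTet1. Kpna4 made up 11.7, 12.7 and 12.9% against 16.4, 16.0 and 14.6%, and Kpna6 5.30, 5.55 and 5.35% against 7.93, 7.54 and 6.89%. The shares of these 3 genes and of Kpna1 did not overlap between groups, while those of Kpna3 did, and shTet1 replicate 3 was the knockdown library nearest to the controls for Kpna2, Kpna4 and Kpna6. These shares do not depend on how libraries are scaled, and with 3 libraries a group no exact test of them can go below p = 0.1.

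**Figure D3:**
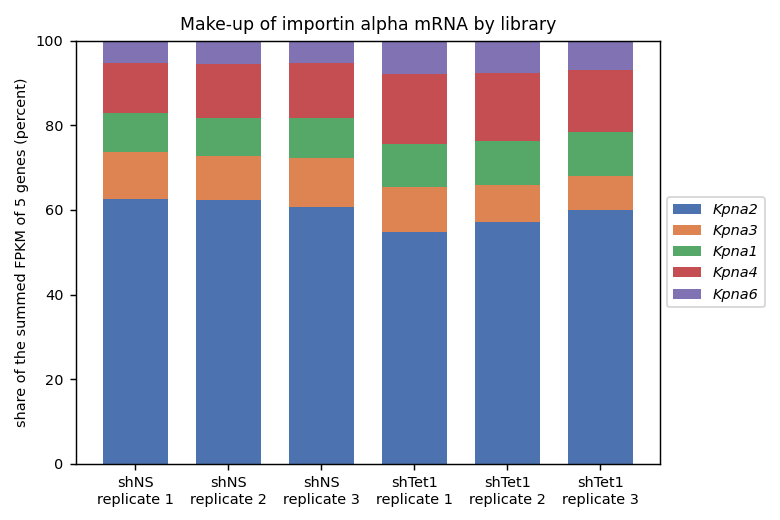
Share of each importin alpha gene in the summed FPKM of the 5 genes, in percent, stacked for each of the 6 libraries. Kpna2 takes 60.7 to 62.5% in shNS and 54.8 to 59.9% in shTet1, and Kpna4 and Kpna6 take more in every shTet1 library.

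Kpnb1 (chromosome 11, 97159710 to 97187892) encodes importin beta 1, which carries importin alpha and its cargo through the channel. It stood at 85.1, 105 and 101 FPKM in shNS and at 49.2, 60.5 and 77.9 FPKM in shTet1. Replicate 1 was lowest in each group, and the groups did not overlap (log2 change −0.65, SE 0.16, adjusted p = 0.0121). Within the same-numbered pairs the log2 ratio was −0.78, −0.78 and −0.37, smallest in replicate 3.

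The Ipo genes encode receptors of the importin beta family that bind their cargo directly. Of 7, 4 fell under both scalings, and the median was −0.49 (−0.36 relative to all genes). Ipo11 (chromosome 13, 106794439 to 106936958), which imports ubiquitin-conjugating enzymes, stood at 16.5, 14.7 and 15.0 FPKM in shNS and at 7.43, 7.03 and 7.47 FPKM in shTet1. The knockdown libraries were nearly equal and held 47.4% of the control mean (log2 change −0.98, SE 0.08, adjusted p = 0.000112), and this was the smallest adjusted p of the 42 genes. In the authors' deposited table its log2 fold change was −0.94. Ipo5 (chromosome 14, 120896840 to 120948046), a receptor of ribosomal proteins and histones, stood at 68.6, 72.2 and 75.7 FPKM in shNS and at 39.7, 39.9 and 50.8 FPKM in shTet1 (log2 change −0.73, SE 0.11, adjusted p = 0.00115). Ipo7 (chromosome 7, 110018315 to 110056609), which also imports ribosomal proteins, stood at 79.0, 72.2 and 81.2 FPKM in shNS and at 54.9, 50.9 and 58.4 FPKM in shTet1 (log2 change −0.49, SE 0.09, adjusted p = 0.0022). In both the groups were clearly apart.

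Ipo4, an importer of histones, went from 11.9 ± 1.87 to 7.03 ± 2.16 FPKM (log2 change −0.71, SE 0.20, adjusted p = 0.0196), and it lost its call without shNS replicate 2 or 3 or shTet1 replicate 2 (adjusted p from 0.00801 to 0.067 over the libraries left out). Ipo8, Ipo9 and Ipo13 were not called, with log2 changes of −0.18, −0.23 and −0.25 and adjusted p = 0.0769, 0.0882 and 0.105. With the replicate block, Ipo8 and Ipo13 were called (adjusted p = 0.0421 and 0.0192) and Ipo9 was not. Without shTet1 replicate 3, Ipo9 and Ipo13 were called (adjusted p = 0.0309 and 0.0421). Ipo13 differs from the others in that it works in both directions, importing some cargo and exporting other. Ipo8, Ipo9 and Ipo13 each held a larger share of the 7 genes' summed FPKM in every shTet1 library than in any shNS library, and Ipo5 and Ipo11 a smaller one. Ipo11, for instance, went from 7.03 ± 0.563 to 4.94 ± 0.390% (SD, n = 3 each).

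Transportins import RNA-binding proteins. Tnpo2 (chromosome 8, 85036873 to 85057585), whose window with E-boxes is printed above, stood at 30.9, 35.8 and 33.8 FPKM in shNS and at 19.1, 21.4 and 25.1 FPKM in shTet1 (log2 change −0.60, SE 0.11, adjusted p = 0.00318). Its close paralogue Tnpo1 (chromosome 13, 98839019 to 98926384), the receptor of hnRNP proteins, stood at 59.8, 62.3 and 63.7 FPKM in shNS and at 47.3, 43.2 and 49.5 FPKM in shTet1 (log2 change −0.40, SE 0.08, adjusted p = 0.00427). Neither gene's groups overlapped, and both kept their calls after scaling. Tnpo3 (chromosome 6, 29540827 to 29609858), the receptor of serine- and arginine-rich splicing factors, stood at 40.4, 40.9 and 41.7 FPKM in shNS and at 30.7, 33.5 and 34.8 FPKM in shTet1 (log2 change −0.31, SE 0.08, adjusted p = 0.0121). It was not called after scaling (adjusted p = 0.105), with limma-voom (adjusted p = 0.098) or without shNS replicate 3 (adjusted p = 0.0582). On the opposite strand, exons of Tnpo3 overlap those of Irf5 by up to 251 bases per exon pair. Those of Tnpo2 overlap A230103J11Rik by up to 254.

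Of 6 exportin genes, 5 fell, with a median of −0.62 (−0.49 relative to all genes). Xpo4 (chromosome 14, 57577521 to 57668232), which exports the translation factor eIF5A, stood at 17.3, 21.0 and 19.1 FPKM in shNS and at 9.11, 9.92 and 12.2 FPKM in shTet1, with no overlap (log2 change −0.82, SE 0.12, adjusted p = 0.00108). Xpo5 (chromosome 17, 46202811 to 46243598), the exporter of microRNA precursors and the gene with a pair of NRF1 motifs printed above, stood at 29.8, 32.7 and 32.8 FPKM in shNS and at 18.0, 17.5 and 22.1 FPKM in shTet1 (log2 change −0.70, SE 0.10, adjusted p = 0.00109). Xpo7 (chromosome 14, 70662126 to 70770864) stood at 8.40, 8.36 and 9.12 FPKM in shNS and at 5.33, 5.07 and 5.99 FPKM in shTet1 (log2 change −0.58, SE 0.09, adjusted p = 0.00152). The last is the least abundant exportin here, and its exons overlap those of Npm2 on its strand by up to 39 bases per exon pair. Xpo1 (chromosome 11, 23255909 to 23297597), the general receptor of the leucine-rich export signal and the most abundant exportin, stood at 58.5, 48.6 and 54.1 FPKM in shNS and at 35.1, 29.6 and 36.3 FPKM in shTet1, and shTet1 held 62.7% of the control level (log2 change −0.66, SE 0.11, adjusted p = 0.00162).

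Xpot, which exports transfer RNA, went from 41.8 ± 4.34 to 28.9 ± 5.80 FPKM (log2 change −0.53, SE 0.15, adjusted p = 0.0172). It missed the threshold after scaling (adjusted p = 0.0572) and without shNS replicate 2 or 3 or shTet1 replicate 2 (adjusted p from 0.00419 to 0.0651 over the libraries left out). Xpo6 (chromosome 7, 126101718 to 126200539), the exporter of actin, stood at 22.4, 29.5 and 27.4 FPKM in shNS and at 16.4, 22.2 and 23.4 FPKM in shTet1. Its groups overlapped, with replicate 1 lowest in each, and it was not called (log2 change −0.35, SE 0.15, adjusted p = 0.0892). Within the same-numbered pairs its log2 ratio was −0.43, −0.39 and −0.22. It was called with the replicate block (adjusted p = 0.00528), without shNS replicate 1 (adjusted p = 0.0459) and without both replicate 1 libraries. Of the exportins' summed FPKM, Xpo1 took 29.7 ± 3.81% in shNS and 28.6 ± 3.49% in shTet1, an overlapping share, while Xpo4 went from 10.5 ± 0.733 to 8.78 ± 0.280%, with no overlap.

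**Figure D4:**
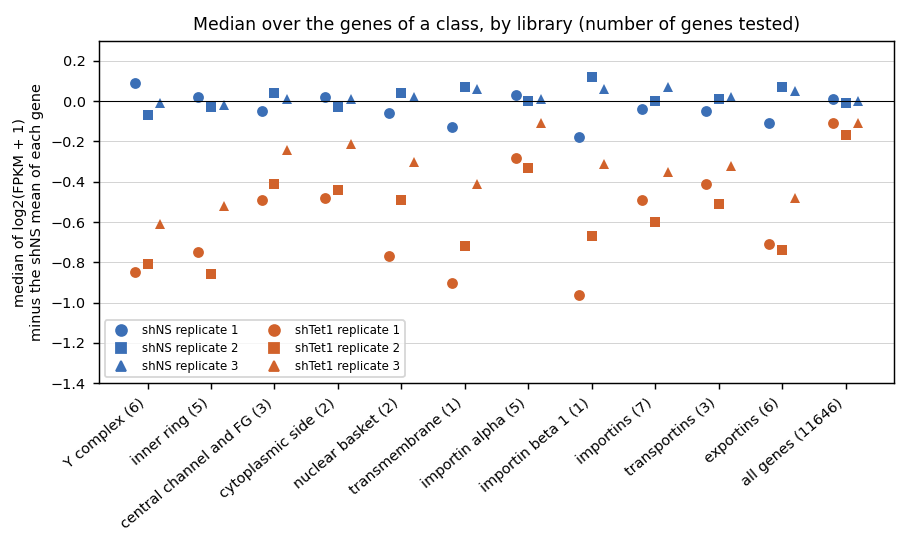
Median over the tested genes of each class, in each library, of log2(FPKM + 1) minus the gene's shNS mean, in log2 units; blue is shNS, orange shTet1, and marker shape the replicate number. The Y complex and inner ring lie between −0.86 and −0.52 in shTet1 and importin alpha between −0.33 and −0.11, and shTet1 replicate 3 is the knockdown library nearest to shNS in every class.

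Genes of the same pathway outside the symbol rule were counted in 4 lists, to be read against 33.7% lower and 19.4% higher of all genes tested, or 23.7 and 24.8% after scaling. Of 11 tested genes of the Ran cycle and other transport factors, 8 fell and 1 rose, that is 72.7 and 9.09%, and 7 and 1 after scaling, 63.6 and 9.09%. The median log2 change was −0.68, or −0.54 relative to all genes. Ran itself (chromosome 5, 129020156 to 129024322) stood at 276, 273 and 274 FPKM in shNS and at 145, 144 and 181 FPKM in shTet1, with no overlap (log2 change −0.81, SE 0.10, adjusted p = 0.000518). Rcc1, the exchange factor that loads Ran with GTP on chromatin, went from 47.1 ± 5.42 to 25.1 ± 7.59 FPKM (log2 change −0.92, SE 0.20, adjusted p = 0.00648). The activators of GTP hydrolysis Rangap1 and Ranbp1 had log2 changes of −0.80 and −0.91 (adjusted p = 0.00678 and 0.000398). Nutf2, which returns Ran to the nucleus, and Cse1l, the exportin of importin alpha, had log2 changes of −0.86 and −0.68 (adjusted p = 0.000306 and 0.000785). Senp2, a SUMO protease at the pore and the gene of this list that rose, stood at 14.4, 14.2 and 13.6 FPKM in shNS and at 16.8, 16.8 and 16.7 FPKM in shTet1 (log2 change 0.24, SE 0.07, adjusted p = 0.0271). It lost its call without any 1 of the shNS libraries or shTet1 replicate 2, with adjusted p from 0.0411 to 0.115 over the libraries left out, and is named after its values were seen.

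Of 12 pore components whose symbols the rule does not take, 8 fell (66.7%) and none rose, and 4 fell (33.3%) and none rose after scaling. Their median was −0.46, or −0.33 relative to all genes. With the replicate block 10 fell (83.3%), against 41.0% of all genes. The 3 with the smallest adjusted p were Ndc1, a membrane nucleoporin (−0.93, adjusted p = 0.000242), Aaas (−0.67, adjusted p = 0.000793), and Gle1, an mRNA export factor of the cytoplasmic side (−0.71, adjusted p = 0.00179). Ranbp2, the large protein of the cytoplasmic filaments, and Tpr, the main protein of the basket, were not called. Ranbp2 stood at 46.1, 38.4 and 45.2 FPKM in shNS and at 41.3, 37.1 and 39.3 FPKM in shTet1, with overlapping groups (log2 change −0.13, SE 0.09, adjusted p = 0.26). Tpr went from 49.3 ± 3.23 to 40.4 ± 5.30 FPKM (log2 change −0.29, SE 0.11, adjusted p = 0.0567), and was called with the replicate block (adjusted p = 0.0134) and without shTet1 replicate 3 (adjusted p = 0.0187).

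Of 22 mRNA export genes, 13 fell (59.1%) and none rose, and 8 fell (36.4%) and 1 rose (4.55%) after scaling. Their median was −0.34, or −0.20 relative to all genes. Nxf1, the main mRNA export receptor and not a karyopherin, stood at 35.9, 30.4 and 32.4 FPKM in shNS and at 36.6, 27.6 and 27.9 FPKM in shTet1. Its groups overlapped (log2 change −0.11, SE 0.12, adjusted p = 0.496), and its log2 change became 0.02 with scaling. Mcm3ap, Ddx39b and Pcid2, which work upstream of Nxf1 in export, had log2 changes of −0.73, −0.56 and −0.48 (adjusted p = 0.000801, 0.00103 and 0.00154). Of 17 nuclear envelope and lamina genes, 8 fell (47.1%) and 3 rose (17.6%), and 6 fell (35.3%) and 5 rose (29.4%) after scaling. Their median was −0.29, or −0.15 relative to all genes. The list went both ways, and its median lay nearest to that of all genes among the 4 lists. Banf1, a chromatin-binding envelope protein, Lbr, the lamin B receptor, and Nrm had log2 changes of −0.75, −0.59 and −0.54 (adjusted p = 0.000826, 0.000946 and 0.00148). The 3 that rose, named after their values were seen, were Lmna, which encodes A-type lamins, Tor1a, an ATPase of the envelope lumen, and its cofactor Tor1aip1. Lmna stood at 0.187, 0.257 and 0.428 FPKM in shNS and at 1.57, 3.85 and 5.99 FPKM in shTet1. It passed the filter on low values through the shTet1 libraries alone and so had to differ, and its log2 change of 1.78 is a description. Tor1a and Tor1aip1 had log2 changes of 0.62 and 0.54 (adjusted p = 0.00173 and 0.00231).

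**Figure D5:**
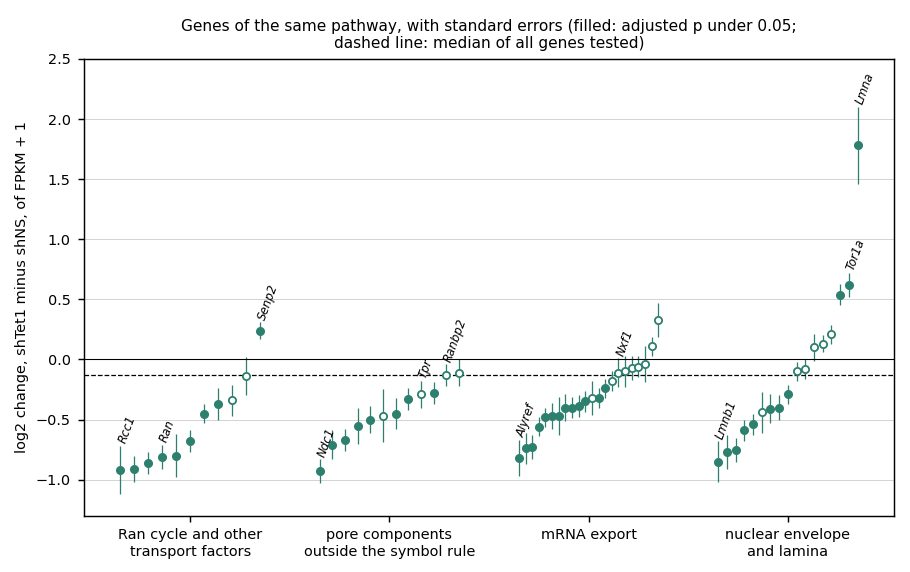
Log2 change (shTet1 minus shNS, log2 of FPKM + 1) with its standard error for each tested gene of the 4 related lists, sorted within a list, filled where the adjusted p is under 0.05; the dashed line is the median of all genes, −0.13. The Ran cycle list reaches from −0.92 for Rcc1 to 0.24 for Senp2, and the envelope list to 1.78 for Lmna.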

How the data were processed

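RNA was sequenced from 3 shNS and 3 shTet1 libraries with 51-bp single-end reads after poly(A) selection, per the labels' protocols. Reads were mapped to GRCm38, according to the submitters' processing notes. The sources used here do not name an aligner, a counter, an annotation or the test behind the authors' p-values. The 6 deposited columns of values per library were taken as FPKM, from their values. Multiplied by a depth per library and a length per gene, they gave whole reads for 100.0% of values within 0.001 read (largest deviation 4.4e-05). The deposited mean signal per group was, by its values, reads divided by a size factor. Columns of the authors' own comparison hold a ratio (fold change), that ratio on the log2 scale, and a p-value before and after adjustment, per the file headers.

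From the FPKM values, limma 3.58.1 (R 4.3.3) was run on log2(FPKM + 1) with an intensity trend, on the genes that reached 1 FPKM in 3 or more libraries, with group as the sole term, two-sided, and Benjamini-Hochberg adjustment over all 11646 genes tested. The pseudocount of 1 understates changes of low genes. Errors of levels are SD and those of changes standard errors from limma. Alternatives were median-of-ratios scaling, a pseudocount of 0.1, no filter, a filter of 5 FPKM, limma-voom on recovered reads (at least 10 reads in at least 3 libraries), a replicate block, leaving out each library, and leaving out both replicate 1 libraries. The script was tested on simulated data.

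Groups and replicate numbers came from the titles, since the descriptions give a single replicate number per group. After subtracting group means, libraries with the same number correlated at 0.61, 0.36 and 0.21 over genes, which are not independent. The numbers were taken to pair the libraries, and the pairs enter the replicate block and the within-pair ratios, not the main test. Libraries with different numbers correlated at −0.52 to 0.34. The value of 0.34, for shNS replicate 2 with shTet1 replicate 3, exceeds the 0.21 of the replicate 3 pair. These correlations set replicate 1 apart but do not settle how replicates 2 and 3 pair. The members and lists were chosen with earlier results of these data known. Values per library are given for up to 3 members of each class with the smallest adjusted p, members against the direction of their class, members under the filter, Tet1, Ran and Nxf1. Kpna4, Xpo1 and Xpo6 are described beyond that rule, as are Senp2, Ranbp2 and the genes of the envelope list that rose. Of the related lists, Ranbp17, Nxf2, Nxf3 and Nxf7 were not analysed here, and the older symbol Tmem48 is Ndc1, which was. Positions and promoter windows are RefSeq's (GRCm38.p6) and exon overlaps GENCODE's, in which 42 of the 43 genes were found. For 32 of the 34 genes with a window, the bases after the start of at least 1 window lay in a GENCODE transcript of the gene.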

Additional observations from a re-analysis of the deposited data

How the results depend on the processing

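The counts and medians of pore components and receptors stayed in the same direction and within 1.5 times of the reported count under all 13 alternatives. The replicate block gave 19 pore and 19 receptor genes as lower, where 18 and 16 are reported. It gave 41.0% of all genes as lower, where 33.7% are reported. Calls of the named genes that the block changes are given beside them. The 4 related lists moved more. Their count of genes called higher went from 4 (6.45%) to 7 (11.3%) with median-of-ratios scaling and to 9 (14.1%) with limma-voom. The share of all genes called higher also rose, from 19.4% to 24.8 and 23.9%. With each library left out in turn, the lists' count lay between 2 and 4 and that of all genes between 1698 and 2181. The lists' median log2 change went from −0.39 to −0.26 and −0.27 under those 2 scalings, which shift the median of all genes. Near 0, signs reversed. Kpna4 became 0.04 with scaling and 0.04 with limma-voom, and Nxf1 became 0.02 under each. Leaving out each library in turn, Kpna6 ran from −0.00 (without shTet1 replicate 1, adjusted p 0.991) to 0.08, and Nup62-il4i1 from −0.12 (without shTet1 replicate 2) to 0.15, with −0.02 and −0.04 without shNS replicate 1 and 3 and −0.01 without shTet1 replicate 3. For sign reversals the cause was not tested. The members had 64 to 10469 reads per gene and library, fewest for Nup210l, which was not tested. Counting error was not set against the spread between libraries.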
